A study of Mus musculus with 4 samples.

Results

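Interferon regulatory factors (IRF), the signal transducer Stat2 and the receptor chain Ifngr1 were examined in injured kidneys of mice that lack Apela in renal tubules. The 9 genes were Irf1, Irf2, Irf3, Irf5, Irf7, Irf8, Irf9, Stat2 and Ifngr1, chosen by gene name among the 54078 features of the expression table, and each was found there. All 9 had at least 2.35 FPKM (fragments divided by gene length and library size) in every library, so none was lost to the filter, which asked for a mean of 0.5 FPKM or more.

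Interferons are secreted signals that cells release when they sense foreign or misplaced nucleic acid or, for interferon gamma, when T cells and NK cells are activated. Type I interferons bind the IFNAR receptor, whose kinases JAK1 and TYK2 activate STAT2, which acts with IRF9 in the complex ISGF3 on interferon-stimulated response elements (ISRE). Interferon gamma binds a receptor made of IFNGR1 and IFNGR2, and the signal reaches gamma-activated sites (GAS), with Irf1 as a classic early target. In kidney, tubular, endothelial and infiltrating immune cells can all respond.

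Promoter sequence is shown for the genes in which either element was found close to a start site, and for Irf7, an interferon-induced member, for contrast. The windows, from 250 bases before to 50 bases after each start, came from RefSeq on GRCm38.p6, where the 9 genes all matched by symbol and had 12 windows. The ISRE core was searched as GAAA, any 2 bases and GAAA, and the GAS as TTCNNNGAA, on both strands. An ISRE core was found in 2 of the 12 windows, against 3.44% of all 32851 mouse windows, and a GAS in 3 of the 12, against 8.30%. These matches describe the letters in the window and were not tested as binding sites. The Irf1 sequence is that of chr11:53769764-53770013 on the plus strand, with the GAS match in capitals, from position -90 to -82 of the start. The Irf7 sequence is that of chr7:141266425-141266674, read on the minus strand, and holds neither match.
Irf1: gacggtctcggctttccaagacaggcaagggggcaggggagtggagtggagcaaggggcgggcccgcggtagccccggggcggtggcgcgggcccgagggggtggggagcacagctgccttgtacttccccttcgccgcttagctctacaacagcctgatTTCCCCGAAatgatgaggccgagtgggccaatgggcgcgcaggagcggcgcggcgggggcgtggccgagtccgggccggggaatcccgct
Irf7: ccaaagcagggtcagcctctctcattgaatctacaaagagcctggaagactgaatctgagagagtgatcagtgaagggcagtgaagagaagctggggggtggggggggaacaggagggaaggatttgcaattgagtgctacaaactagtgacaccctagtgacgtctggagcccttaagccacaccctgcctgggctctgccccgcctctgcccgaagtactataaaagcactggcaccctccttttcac

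The other matches are shown with flanking bases, again with the match in capitals. In Stat2 the ISRE core lies on the opposite strand at chr10:128270276-128270285. In Irf2 an ISRE core at chr8:46739504-46739513 stands close to a GAS at chr8:46739521-46739529, and in Irf8 the 2 GAS matches lie at chr8:120736187-120736195 and chr8:120736205-120736213. The windows of Irf3, Irf5, Irf9 and Ifngr1 held neither.
Stat2, ISRE core: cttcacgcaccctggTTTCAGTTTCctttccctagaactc
Irf2, ISRE core: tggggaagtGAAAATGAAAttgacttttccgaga
Irf2, GAS: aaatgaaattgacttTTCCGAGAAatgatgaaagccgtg
Irf8, first GAS: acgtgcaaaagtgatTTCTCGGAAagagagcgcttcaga
Irf8, second GAS: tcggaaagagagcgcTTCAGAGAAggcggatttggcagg

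**Figure D1:**
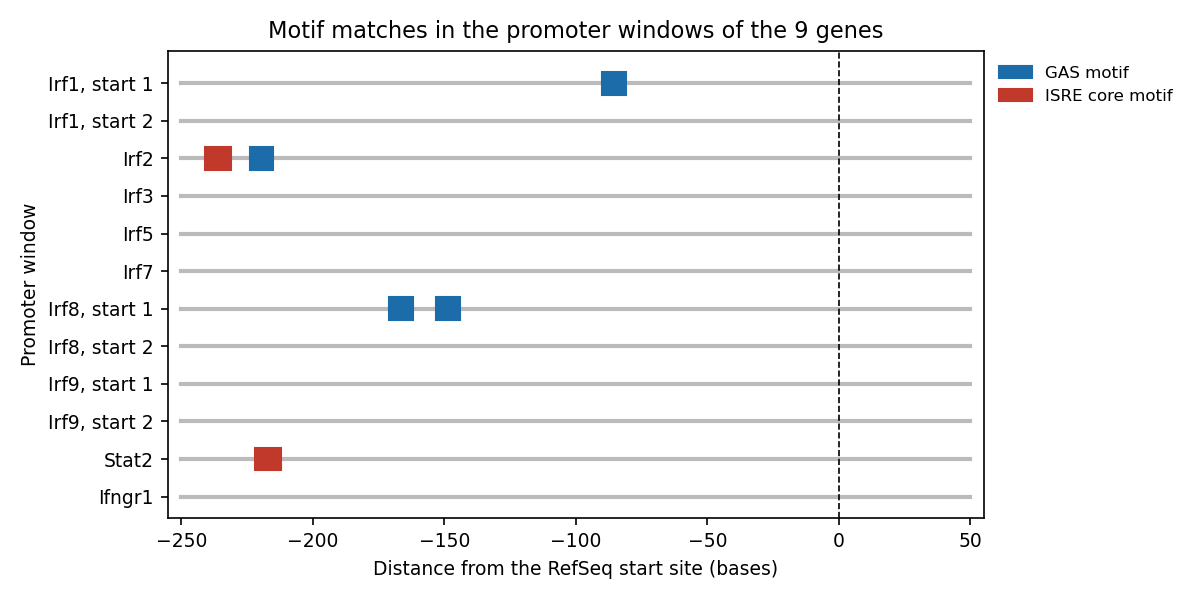
Matches to the GAS and ISRE core motifs in the 12 promoter windows of the 9 genes, by distance in bases from the RefSeq start site (dashed line). Each grey line is a window, and of the genes with a match, Irf1 has its match closest to the start.

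All 4 libraries came from kidneys of adult male mice at day 3 after both kidneys had been clamped for 30 min. The 2 WT pools were from Apela flox/flox mice without Cre, and the 2 KO pools from Apela flox/flox littermates with Ksp-Cre, so both genotypes carry the floxed alleles. The Ksp-cadherin promoter that drives Cre is active in renal tubular epithelium, so other renal cells of the KO mice keep Apela. RNA of 3 mice was combined in each pool, the strain label is C57BL/6 x 129S4/SvJae, and the series text speaks of adipose tissue where title and sample labels say kidney. Uninjured kidneys were not analysed here, so the comparison is one of genotypes under injury.

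Gene reads numbered 16045724 to 16927742 per library. The targeted gene Apela was at 5.27 and 4.57 FPKM in WT and at 0.536 and 0.245 in KO. Kidney epithelium was well represented in every pool, with 788 to 1133 FPKM of uromodulin (Umod). However, 3 of 4 proximal tubule markers were lower in both KO pools than in either WT pool, beside 18.1% of all genes tested. The exception, Cubn, overlapped, with 31.2 and 26.1 FPKM in WT and 26.8 and 26.3 in KO. The phosphate transporter Slc34a1 was at 898 and 689 FPKM in WT and at 365 and 609 in KO, the glucose transporter Slc5a2 at 114 and 95.3 against 56.9 and 77.1, and megalin (Lrp2) at 99.9 and 91.0 against 70.4 and 76.3. Summed over 18 monocyte and macrophage markers, WT replicate 1 had 244 FPKM, WT replicate 2 had 600.1, and the KO pools had 283 and 278, so WT replicate 2 stood apart and results are also given without it. Sums over other marker lists also differed. For 6 B cell markers the sum was 4.11 and 8.82 in WT and 2.13 and 1.75 in KO, most of it Ighm (3.07 and 7.30 against 1.24 and 1.04). It was 1.73 and 3.32 against 1.43 and 1.06 for 10 T and NK cell markers. Over 8 endothelial markers it was 162 and 185 against 232 and 239, most of it Plvap (103 and 110.1 against 161 and 152). The sums of 8 neutrophil markers overlapped, with 11.4 and 23.0 in WT and 12.3 and 29.7 in KO. Of the 5 tested, 3 were higher and 2 lower in KO, beside 48.6% of all genes lower. For 10 dendritic cell markers the sum was 144 and 289.6 in WT and 51.6 and 42.1 in KO. Most of it was Cd74, the MHC class II chaperone that other antigen-presenting cells also express, at 139 and 283 against 46.6 and 37.5. All 5 tested had a log2 difference below 0, beside 48.6% of all genes tested. For 2 of them both KO pools were lower than either WT pool, beside 18.1% of all genes. Defining lymphoid and dendritic markers were near 0, with at most 3 reads in any pool for Ms4a1 of B cells, Cd3e of T cells, and Xcr1, Cd209a and Siglech of dendritic cells. In whole kidney, fewer cells of a type and less RNA per cell cannot be told apart.

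Averaged over the pools, Ifngr1 was the highest of the 9 genes with 33.7 FPKM, followed by Irf3 with 20.1, Irf1 with 8.40, Irf7 with 6.70, Irf9 with 6.55, Stat2 with 6.52, Irf5 with 5.83, Irf8 with 4.09 and Irf2 with 2.83. The ranges of Ifngr1 and Irf3, of Irf3 and Irf1, and of Irf8 and Irf2 did not overlap. From Irf1 down to Irf8 the ranges of all neighbours overlapped, and Irf7 was above Irf9 in only 1 of the 4 libraries, WT replicate 2. For Irf7 the length used was 3776 bases, the whole span of the gene with its introns, which lowers its FPKM. The other lengths also join the exons of all transcripts of a gene, as in the 5386 bases of Irf9. Levels of different genes therefore compare only roughly. Reads on the 9 genes ran from 225 for Irf5 in WT replicate 1 to 1985 for Ifngr1 in KO replicate 1, so counting error alone was at most 6.67% in any pool.

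**Figure D2:**
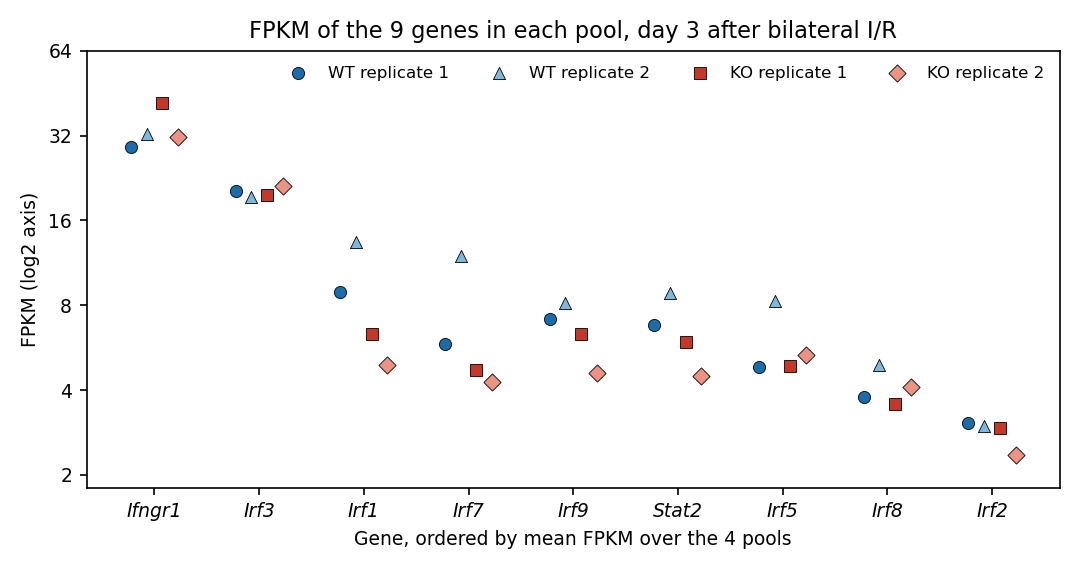
FPKM (log2 axis) of each of the 9 genes in the 4 pools, 1 symbol per pool, ordered by mean FPKM. For Irf1, Irf7, Irf9 and Stat2 both KO pools lie below both WT pools, with WT replicate 2 on top, while Irf3 is nearly level.

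The comparison asked which renal pathways differ between injured KO and WT mice. Irf1 and Irf7 had about the same size of difference, with a KO mean of 0.503 and 0.504 times the WT mean, and the ISGF3 genes Stat2 and Irf9 followed with 0.664 and 0.714 times. Without WT replicate 2 the log2 difference of Irf7 was -0.34, smaller than that of Irf1 (-0.64) and no larger than those of Irf9 (-0.37) and Stat2 (-0.37). Irf3 was nearly equal, at 1.03 times, and Ifngr1 was at 1.19 times. No member passed the threshold, as the limma adjusted p-values (Benjamini-Hochberg over 15414 genes) ran from 0.757 to 0.953. Over all genes 0% were called at an adjusted p under 0.05, with 974 at an unadjusted p under 0.05. With 2 pools a group, no two-sided exact permutation p can lie below 0.333, and the p-values measure the spread between these pools only.

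Ifngr1, the ligand-binding chain of the interferon gamma receptor, spans chr10:19591949-19610229 of GRCm38 (plus strand). The WT pools had 29.0 and 32.5 FPKM of Ifngr1, and the KO pools had 41.7 and 31.7. KO replicate 1 alone was high, and KO replicate 2 lay between the WT pools, so the groups overlapped. On the scale of log2(FPKM + 0.5), the difference, KO minus WT, was 0.24 (standard error 0.17, 95% interval -0.22 to 0.70, limma adjusted p = 0.828), and it was 0.045 without KO replicate 1, 0.43 without KO replicate 2 and 0.16 without WT replicate 1. Intervals here are for single genes and are not adjusted for the number of genes.

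Stat2, which is activated at the type I receptor, spans chr10:128270559-128292849 (plus strand). Stat2 was at 6.79 and 8.88 FPKM in WT and at 5.91 and 4.50 in KO. Both KO pools were lower than either WT pool, and the lowest WT pool was 1.15 times the highest KO pool. Its log2 difference was -0.55 (standard error 0.20, 95% interval -1.07 to -0.023, limma unadjusted p = 0.0438 and adjusted p = 0.785). Leaving out 1 pool gave -0.73 to -0.37.

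Irf9, the DNA-binding partner of STAT2 in ISGF3, spans chr14:55603571-55610030 (plus strand). Irf9 was at 7.14 and 8.15 FPKM in WT and at 6.34 and 4.59 in KO. The groups did not overlap, and KO replicate 2 was the lowest pool. A log2 difference of -0.46 (standard error 0.19, 95% interval -0.95 to 0.027, limma adjusted p = 0.786) became -0.25 without KO replicate 2. Of the exon bases of Irf9, 123 are shared with Rnf31 on the same strand, 2.28% of its length, and how reads there were counted is not given in the sources used here. Irf9 and Stat2 had the most similar profiles of any pair of the 9 genes over the 4 pools, with a Euclidean distance of 0.162 between their centred log2 values.

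Irf1, an activator that both types of interferon induce, spans chr11:53770014-53778374 (plus strand) and carries the GAS match printed above. Irf1 was at 8.95 and 13.4 FPKM in WT and at 6.34 and 4.89 in KO. WT replicate 2 was the highest and KO replicate 2 the lowest pool, the groups did not overlap, and the lowest WT pool was 1.41 times the highest KO pool, the widest such gap among the 9 genes. Irf1 had a log2 difference of -0.92 (standard error 0.24, 95% interval -1.55 to -0.29, limma unadjusted p = 0.0143 and adjusted p = 0.757), and 1.37% of the genes tested had a lower one. Without WT replicate 2 it was -0.64, and -1.19 without WT replicate 1.

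Irf2, which binds the same elements as Irf1 and mostly opposes it, spans chr8:46739732-46847458 (plus strand). Irf2 was at 3.05 and 2.98 FPKM in WT and at 2.94 and 2.35 in KO. KO replicate 2 was low and the other 3 pools were nearly equal, with the lowest WT pool only 1.01 times the highest KO pool. Irf2 had a log2 difference of -0.17 (standard error 0.15, 95% interval -0.57 to 0.24, limma adjusted p = 0.857), of -0.029 without KO replicate 2 and of -0.30 without KO replicate 1. Within a pool, the ratio of Irf1 to Irf2 in FPKM was 2.94 and 4.50 in WT and 2.16 and 2.08 in KO. The KO pools thus had nearly the same ratio, below that of either WT pool, and the ratio was chosen after the values were seen.

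Irf3 and Irf7 carry the signal of nucleic acid sensors to the type I interferon genes. Irf3, which is present in cells before any signal, spans chr7:44997648-45002848 (plus strand). Irf3 was at 20.3 and 19.3 FPKM in WT and at 19.7 and 21.3 in KO. The groups overlapped, and the pools were closer together than for any other of the 9 genes. Irf3 had a log2 difference of 0.045 (standard error 0.11, 95% interval -0.25 to 0.34, limma adjusted p = 0.953), and of -0.0084 to 0.099 with 1 pool left out. Any difference inside the interval is compatible with these pools. The interval is no detection limit, since the larger difference of Irf1 did not pass the threshold either.

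Irf7, which interferon itself induces, spans chr7:141262706-141266481 (minus strand). Irf7 was at 5.82 and 12.0 FPKM in WT and at 4.72 and 4.26 in KO. WT replicate 2 had 2.06 times the level of WT replicate 1, while the other 3 pools lay closer together, and the groups did not overlap. Irf7 had a log2 difference of -0.84 (standard error 0.34, 95% interval -1.74 to 0.072, limma adjusted p = 0.786). Without WT replicate 2 this was -0.34, and without WT replicate 1 it was -1.33, so leaving out a single pool moved Irf7 more than any other of the 9 genes. The ratio of Irf7 to Irf3, in FPKM within a pool and also chosen after the values were seen, was 0.286 and 0.622 in WT and 0.240 and 0.200 in KO.

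Irf5 and Irf8 are best known from myeloid cells, Irf5 as a driver of inflammatory cytokines in macrophages and Irf8 as a lineage factor of monocytes and dendritic cells. Irf5 spans chr6:29526625-29541871 (plus strand) and was at 4.82 and 8.30 FPKM in WT and at 4.86 and 5.34 in KO. WT replicate 2 was high, and WT replicate 1 was the lowest pool. Irf5 had a log2 difference of -0.29 (standard error 0.27, 95% interval -0.99 to 0.41, limma adjusted p = 0.854), of 0.073 without WT replicate 2 and of -0.65 without WT replicate 1. Of its exon bases 411 (14.1% of its length) are shared with Tnpo3 on the opposite strand, so without strand information reads there cannot be told apart. Tnpo3 was at 6.42 and 6.28 FPKM in WT and at 5.82 and 5.83 in KO.

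Irf8 spans chr8:120736358-120756694 (plus strand) and was at 3.77 and 4.92 FPKM in WT and at 3.57 and 4.11 in KO. WT replicate 2 was again the highest pool, and the groups overlapped. Irf8 had a log2 difference of -0.15 (standard error 0.17, 95% interval -0.60 to 0.30, limma adjusted p = 0.883), of 0.019 without WT replicate 2 and of -0.32 without WT replicate 1. Irf5 and Irf8 were each other's nearest profile among the 9 genes, at a distance of 0.308.

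**Figure D3:**
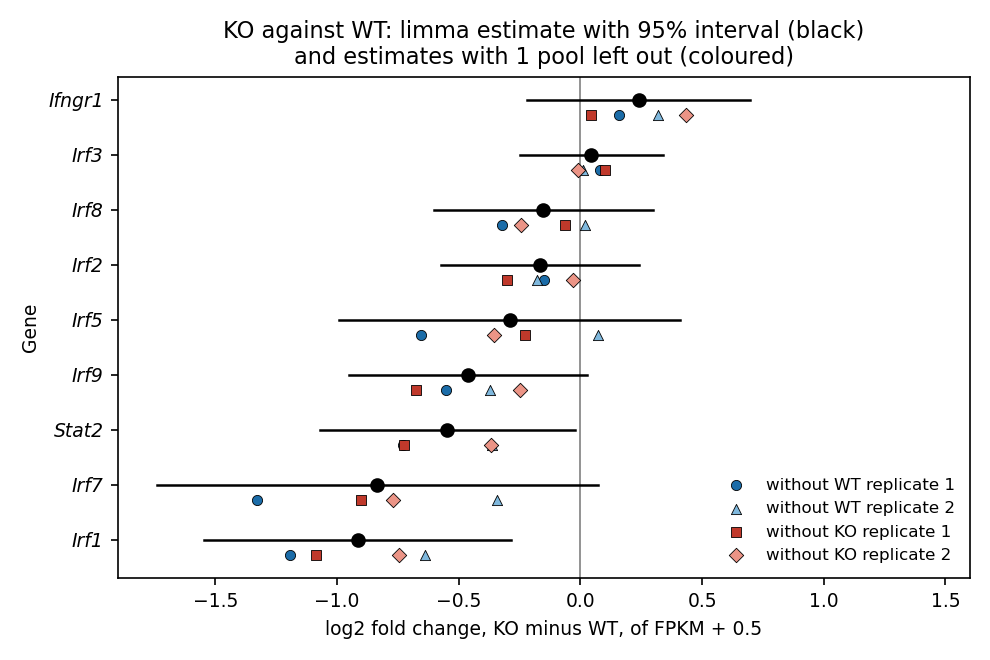
Log2 fold change, KO minus WT, of FPKM + 0.5 for the 9 genes, with the limma estimate and its 95% interval in black and the estimates with 1 pool left out as coloured symbols. The coloured symbols stay below 0 for Irf1, Irf7, Stat2, Irf9 and Irf2, and cross 0 for Irf5 and Irf8 without WT replicate 2 and for Irf3 without KO replicate 2.

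For 5 of the 9 genes, namely Irf1, Irf2, Irf7, Irf9 and Stat2, both KO pools were lower than either WT pool, as they were for 18.1% of all genes tested. For 0 of the 9 both KO pools were higher than either WT pool, beside 19.7% of all genes. At a limma unadjusted p under 0.05, 2 of the 9 were lower in KO, Irf1 and Stat2, beside 3.03% of all genes. The log2 difference was below 0 for 7 of the 9, with a median of -0.29, beside 48.6% and a median of 0.0071 over all genes tested. Omitting WT replicate 2 gave a median of -0.18 for the 9, and omitting WT replicate 1 gave -0.55. These are counts, with no test over the set. The 9 genes were chosen with earlier results of these data known, so the counts are a description.

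WT replicate 2 was the highest of the 4 pools for 6 of the 9 genes, beside 29.1% of all genes tested, and KO replicate 2 was the lowest for 5, beside 23.7%. WT replicate 2 exceeded WT replicate 1 by a factor of 2.06 for Irf7, 1.72 for Irf5, 1.50 for Irf1, 1.31 for Stat2, 1.30 for Irf8 and 1.14 for Irf9. For the 17 tested monocyte and macrophage markers the median factor was 2.35, and 16 of them were highest in that pool. Among them the complement gene C1qb was at 42.0 and 103 FPKM in WT and at 41.4 and 33.9 in KO, and the F4/80 gene Adgre1 at 3.09 and 11.2 in WT and at 3.89 and 2.43 in KO.

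Without WT replicate 2 the median log2 difference of these markers was -0.0010, against -0.62 with all pools. That median lies over markers that went both ways, since both KO pools were above WT replicate 1 for Lyz2 (57.5 FPKM against 89.2 and 104) and Cd68 (9.75 against 16.4 and 14.3) and below it for Cx3cr1 (3.16 against 3.04 and 1.85) and C1qc (20.1 against 18.6 and 14.9). In the same 3 pools the log2 difference was -0.64 for Irf1, -0.37 for Irf9, -0.37 for Stat2, -0.34 for Irf7, 0.073 for Irf5 and 0.019 for Irf8. The single WT pool is assumed there to vary like the KO pools, and no member passed the threshold. The part of the macrophage, neutrophil, B cell, T cell, dendritic cell, endothelial and proximal tubule markers in these results was not tested.

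**Figure D4:**
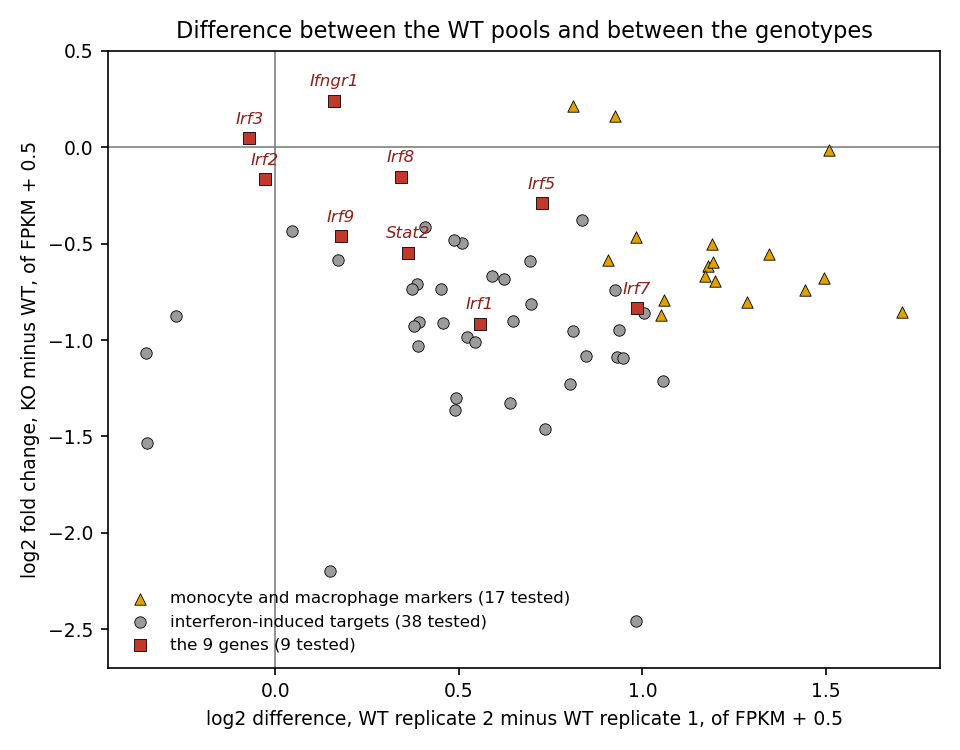
For each gene, the log2 difference between WT replicate 2 and WT replicate 1 of FPKM + 0.5 (horizontal) and the log2 fold change KO minus WT (vertical), for the 9 genes, 38 interferon-induced targets and 17 monocyte and macrophage markers. Most of the markers lie to the right, high in WT replicate 2. Of the 9 genes, Irf7 and Irf5 reach furthest right. Irf1, Stat2, Irf8, Irf9, Ifngr1, Irf2 and Irf3 lie further left, in that order.

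The rest of the pathway was read from lists of its parts. Transcripts of the interferons themselves were at the limit of detection. Of 21 listed genes, 16 had 0 reads in each pool and 20 had 3 reads or fewer in each pool, the exception being Ifnz with 5 reads in WT replicate 2. Ifnb1 had 0 reads in all 4 pools, and 3 reads, taken as the limit, would be 0.249 FPKM or less, counting error only. Ifng had 1 read in WT replicate 1 and 0 in the others, so a difference in these ligands was not detectable at this depth.

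Receptors and Janus kinases were well detected. Of the 9 tested, 0 passed the threshold and 0 had an unadjusted p under 0.05 with limma, with a median log2 difference of -0.047, which became 0.036 on omission of WT replicate 2 and -0.16 on omission of WT replicate 1. Ifnar1, a chain of the type I receptor, was at 11.4 and 13.0 FPKM in WT and at 11.8 and 11.3 in KO. Ifngr2, the partner of Ifngr1, was at 14.6 and 18.1 in WT and at 14.2 and 17.4 in KO. Jak1 was lower in both KO pools, with 27.9 and 32.4 against 26.5 and 26.8, and Jak3 higher, with 8.27 and 9.93 against 11.8 and 10.3.

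Of the 11 other STAT and IRF family genes, 9 were tested, with a median log2 difference of -0.0083 (-0.050 to 0.064 with 1 pool left out), and 0 passed the threshold. Without overlap of the pools, where 18.1% of all genes were lower and 19.7% higher, 3 were lower in KO and 3, namely Stat3, Stat5a and Irf2bpl, were higher. Stat3, the transducer of interleukin-6, was at 23.3 and 23.9 FPKM in WT and at 25.4 and 25.2 in KO. Irf4 and Stat4, lymphoid genes in the main, were under the filter.

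Among 14 inhibitors of the pathway, 12 had a log2 difference below 0, beside 48.6% of all genes tested. Their median was -0.14, and 0 passed the threshold. Without WT replicate 2 the median was -0.024, and without KO replicate 1 it was -0.23. Cish, Usp18, Ptpn2, Pias1, Pias2 and Trim21 were lower in both KO pools than in either WT pool, and Pias3 was higher, beside the same shares of all genes, 18.1% and 19.7%. Usp18, which interferon induces and which blocks the type I receptor, was at 1.52 and 2.75 FPKM in WT and at 1.31 and 0.927 in KO. Socs3 overlapped, with 16.2 and 23.7 in WT and 19.0 and 13.4 in KO.

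Of 24 nucleic acid sensor and adaptor genes in the table, 23 were tested and 0 passed the threshold. In KO 8 were lower and 3 were higher without overlap of the pools, beside 18.1% and 19.7% of all genes, and the median log2 difference was -0.25, but -0.0012 without WT replicate 2 and -0.43 without WT replicate 1. Zbp1, a sensor that interferon induces, was at 1.22 and 3.06 FPKM in WT and at 0.627 and 0.401 in KO. Ifih1, the RNA sensor MDA5, was at 3.10 and 3.73 in WT and at 2.84 and 1.92 in KO. Mavs, the mitochondrial adaptor of the RNA sensors, was higher in KO, with 38.1 and 35.2 in WT and 44.4 and 55.5 in KO. Tbk1, the kinase that phosphorylates Irf3, was at 10.7 and 11.6 in WT and at 10.5 and 10.9 in KO.

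Interferon-induced targets differed more between the genotypes than the 9 factors did in median, a difference that was not tested. Of 43 listed genes, 38 passed the filter and were tested. Their log2 differences ran from -2.46 to -0.38 with a median of -0.92, and 34 were lower in both KO pools than in either WT pool, beside 18.1% of all genes. A limma unadjusted p under 0.05 was found for 27, all lower in KO, beside 3.03% of all genes, and an adjusted p under 0.05 for 0. Genes of this kind were known to be lower in these libraries when the list was drawn up, so the counts are a description.

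Among the targets, Gbp2, a guanylate-binding protein induced through Irf1, was at 12.2 and 20.7 FPKM in WT and at 6.27 and 4.77 in KO. Psmb9, an immunoproteasome subunit that Irf1 induces, was at 3.03 and 4.13 in WT and at 1.73 and 1.58 in KO. Ifit3, which ISGF3 drives, was at 22.9 and 33.1 in WT and at 16.0 and 11.7 in KO. Isg15, a ubiquitin-like modifier, was at 8.39 and 18.0 in WT and at 5.54 and 4.56 in KO, and for each of these 4 genes the groups did not overlap. With WT replicate 2 left out the median over the tested targets was -0.62.

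**Figure D5:**
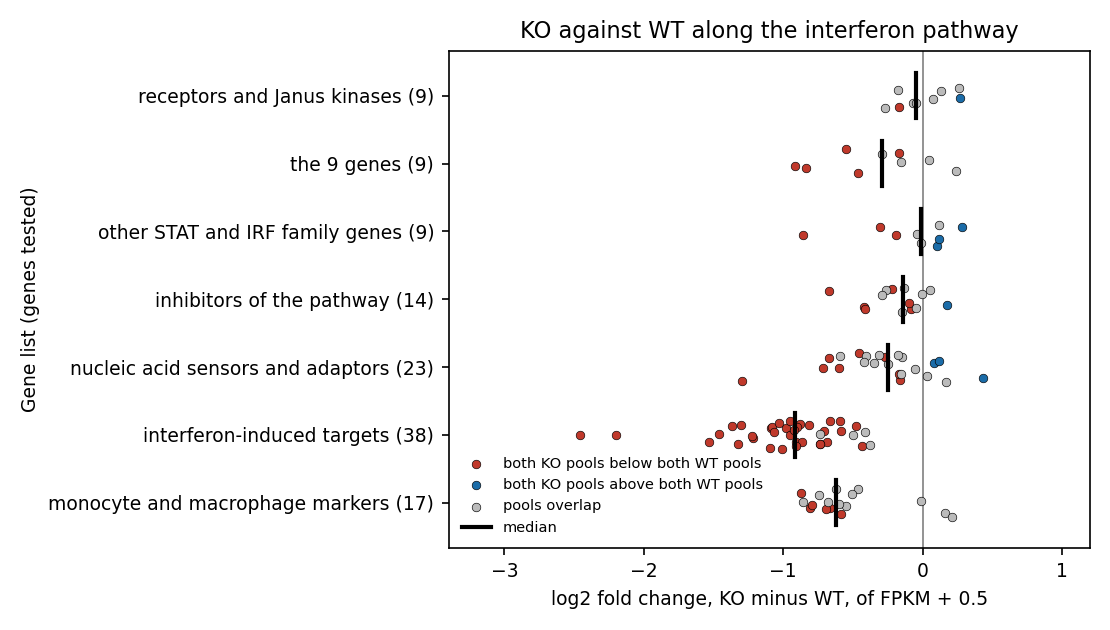
Log2 fold change, KO minus WT, of FPKM + 0.5 for the tested genes of the 5 pathway lists, the 9 genes and the macrophage markers, 1 point per gene, coloured by whether the pools of the 2 genotypes overlap, with the list median as a black bar. The medians drawn run from -0.0083 for the other STAT and IRF genes to -0.92 for the interferon-induced targets, with the 9 genes at -0.29.

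The mean profile of the 9 genes, in centred log2 values, was -0.0073 and 0.35 for WT and -0.087 and -0.26 for KO. Among 11645 candidate genes, the 5 closest to it by Euclidean distance over the 4 libraries were Mettl3, Stk36, Ppp1r26, Cped1 and Gucy1a1, at distances of 0.0253 to 0.0404. Mettl3, an RNA methyltransferase, was at 3.36 and 4.56 FPKM in WT and at 3.20 and 2.77 in KO.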

How the data were processed

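RNA of 4 pools of injured kidney, selected by poly-A, was sequenced. A table with FPKM for each gene and pool was deposited by the authors, with positions and lengths. The submitters' processing notes name HISAT2 2.0.5, mm10 and GRCm38.p6, and the counting tool, annotation release and strand setting are not given in the sources used here. Positions were identical to GENCODE M21 for 97.1% of 53706 shared genes. Multiplied by length, the nonzero FPKM were whole multiples of a constant step in each pool (100%, within 0.01 of a read), which gave back the reads.

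Genes with a mean FPKM of 0.5 or more (15414) were compared on log2(FPKM + 0.5) in limma 3.58.1 (R 4.3.3, moderated with a trend, 2.62 prior degrees of freedom). No covariates were used, tests were two-sided, p-values were adjusted by Benjamini-Hochberg over these genes, and the threshold was an adjusted p under 0.05. This scale understates the differences of low genes. The fits were tested on simulated data.

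The text names the 9 genes, genes of the lists, Apela, and the 5 genes with the nearest profile. Members and lists were chosen with earlier results of these data known. Alternatives were other pseudocounts (0.1 and 1), filters (none, or a mean of 1), quantile normalization, a fit without the trend, a block for the replicate number, voom weights from recovered reads, a fit of protein-coding genes alone, and omission of each pool. Some genes of the lists are not reported here by name.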

Additional observations from a re-analysis of the deposited data

How the results depend on the processing

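Under each of the 13 alternatives 0 genes passed the threshold with limma and Benjamini-Hochberg adjustment, while 687 to 1720 had an unadjusted p under 0.05. The adjusted p of the 9 genes ran from 0.298 to 1.00 over these. Irf1, Irf2, Irf7, Irf9, Stat2 and Ifngr1 kept their direction throughout. Irf3 became -0.0015 with quantile normalization, and with 1 pool left out it ran from -0.0084, without KO replicate 2, to 0.099. Irf5 ran from -0.65 to 0.073 and Irf8 from -0.32 to 0.019, both above 0 when WT replicate 2 was omitted. The median of the 9 genes ran from -0.55, without WT replicate 1, to -0.18. List medians ran from -0.16 to 0.036 for receptors and kinases, from -0.050 to 0.064 for other STAT and IRF genes (0.033 with WT replicate 2 omitted, 0.064 with KO replicate 1 omitted and 0.051 with KO replicate 2 omitted), from -0.23 to -0.024 for inhibitors, from -0.43 to -0.0012 for sensors and from -1.22 to -0.0010 for macrophage markers, the last 3 being closest to 0 when WT replicate 2 was omitted. The cause was not tested.

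The count of the 9 genes with both KO pools below the WT pools was 4 with quantile normalization. Leaving out a pool can only add genes to this count, so it is no check of it. This alternative, and those for the macrophage markers, were chosen after the data were seen. The labels give same-numbered pools nothing in common beyond the number. Their deviations correlated at -0.0017 over all genes, which cannot show whether some genes share an effect. A block for that number gave 0 genes past the threshold and 932, against 974, at an unadjusted p under 0.05.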
